A study of Mus musculus with 20 samples.

Results

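Prostate gene expression was compared between the inbred mouse strains 129X1/SvJ and FVB/NJ, each represented by 4 pools of prostate RNA. The 8 arrays of this comparison were taken by their strain labels from the 20 arrays of a study of 5 strains, in which C57BL/6J, BALB/c and DBA/2 were measured in the same way. Each pool held RNA of 3 males aged 8 to 9 weeks, which makes 12 mice per strain, and combined equal amounts of RNA from the dorsal, lateral, ventral and anterior lobes. The labels name no transgene and no treatment for any animal, and the mice of a pool were not measured one by one. On each array the amplified RNA of a pool competed with a common reference made from the RNA of all strains, and the dyes were balanced, each strain having 2 Cy3 and 2 Cy5 pools. The value analysed for each array element, a spotted cDNA, was the log2 ratio of the pool over the reference, so that a difference between strains of 1 is a 2-fold difference. The question of the comparison was how far the genetic background alone sets transcript levels in the normal gland.

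The mouse prostate is a gland of paired lobes around the urethra whose luminal cells secrete proteins into the seminal fluid under the control of androgens. The epithelium also carries enzymes that handle oxidants, steroids and foreign compounds. Both strains are common backgrounds for transgenic and knockout mice, FVB/NJ because its fertilized eggs are easily injected and 129X1/SvJ because it belongs to the family from which many embryonic stem cell lines come.

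As a check of the strain labels, H2-Ea was examined, which encodes a chain of the class II molecule I-E and is known not to be expressed from the b and q haplotypes that C57BL/6J and both strains compared carry. The mean log2 ratio of H2-Ea was -3.27 ± 0.31 (SD, n = 4) in 129X1/SvJ and -2.57 ± 0.45 (SD, n = 4) in FVB/NJ, whereas it was -3.56 in C57BL/6J, 1.17 in BALB/c and 1.19 in DBA/2. The ratios therefore ran in the direction of pool over reference, and both strains of the comparison lay on the low side. Because 129X1/SvJ, FVB/NJ and C57BL/6J were all low, the check separates them only from BALB/c and DBA/2. It cannot show whether labels were exchanged between 129X1/SvJ and FVB/NJ. Because the reference was itself prostate RNA, a ratio near 0 does not show that a gene is absent, and the tissue label could not be tested by the level of a prostate marker.

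Of 11159 elements tested, 87 (0.78%) differed between the strains at an adjusted p under 0.05 by limma, with 52 higher and 35 lower in 129X1/SvJ. Among 5820 genes that had an element with a single gene name, 52 (0.893%) were called by the element chosen to represent them, 29 higher and 23 lower in 129X1/SvJ. A further 10 genes were called only by another of their elements, and 17 called elements had no single gene name. All 87 called elements had 4 pools of one strain above the 4 pools of the other, as did 739 (6.62%) of all elements and 7.22% of named genes tested. The smallest difference of a called element was 1.65-fold, the median 2.39-fold and the greatest 16.1-fold, and 91.8% of all elements differed by less than 0.5 on the log2 scale. A further 86 elements differed by more than 2-fold between the means without being called, and 976 elements had an unadjusted p under 0.05. The count depended on single pools: without FVB/NJ pool 1, 2, 3 or 4 it was 38, 52, 53 or 40, and without 129X1/SvJ pool 4 it was 157. The plot of all tested elements shows both groups.

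**Figure D1:**
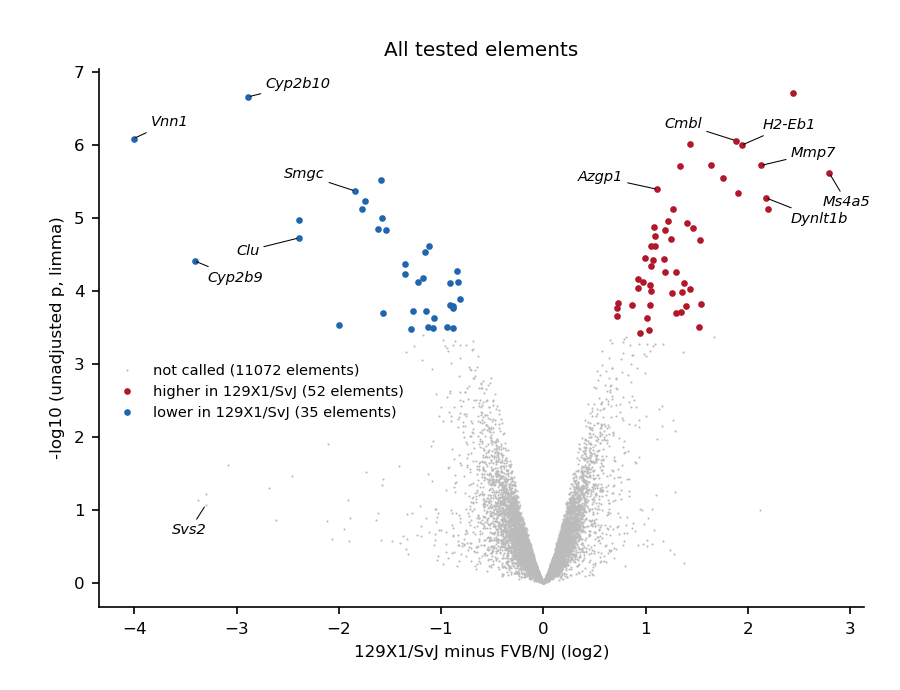
Difference of the strain means (129X1/SvJ minus FVB/NJ, log2, horizontal) against the -log10 of the unadjusted p of limma (vertical) for 11159 array elements, 4 pools per strain. The 52 elements higher and 35 elements lower in 129X1/SvJ at an adjusted p under 0.05 are coloured; Svs2 lies far to the left and low, at a difference of -3.30 that was not called.

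The called differences with the greatest size were on the low side of 129X1/SvJ and belonged to a pantetheinase and a pair of cytochromes P450. Vnn1 encodes vanin 1, a pantetheinase that releases cysteamine and is known to act on glutathione levels. Its log2 ratios were -3.28, -3.27, -3.29 and -2.44 in 129X1/SvJ pools 1 to 4 and 1.30, 0.82, -0.06 and 1.68 in FVB/NJ pools 1 to 4. No 129X1/SvJ pool came near the FVB/NJ pools, and the mean of 129X1/SvJ was 16.1-fold lower (log2 difference -4.01, standard error 0.36, adjusted p = 0.00185 by limma). In bulk RNA of a whole gland, fewer cells of a type and less RNA per cell cannot be told apart, and this holds for every result below.

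Cyp2b10 and Cyp2b9 encode cytochromes P450 of the 2B subfamily, which oxidize drugs and steroids and are known as targets of the nuclear receptor CAR in the liver. The ratios of Cyp2b10 were -2.16, -2.43, -2.20 and -1.39 in 129X1/SvJ and 0.85, 1.10, 0.71 and 0.70 in FVB/NJ. The mean of 129X1/SvJ was thus 7.39-fold lower, with tight FVB/NJ pools (log2 difference -2.89, standard error 0.22, adjusted p = 0.00121 by limma). The ratios of Cyp2b9 were -3.35, -3.01, -2.43 and -0.95 in 129X1/SvJ and 0.69, 1.65, 1.06 and 0.50 in FVB/NJ. Pool 4 of 129X1/SvJ lay closest to FVB/NJ for Cyp2b9, as it did for Vnn1 and Cyp2b10, and the mean difference was -3.41 (standard error 0.48, 10.6-fold, adjusted p = 0.0105 by limma). Cyp2b9 and Cyp2b10 lie 8 genes apart on chromosome 7 and were the only called named genes within 10 genes of each other on any chromosome. Their transcripts are close relatives, and a cDNA element can bind RNA of other members of its family, so that the share of each gene in these values was not tested.

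The windows before the start sites of this pair are shown because the genes moved together. They hold the 250 bases upstream of the start, 5′ to 3′, from RefSeq on GRCm38.p6, which is sequence of C57BL/6J and of neither strain compared; capitals mark runs of at least 8 bases that are identical in the alignment of both.
Cyp2b10, chr7:25897408-25897657, plus strand: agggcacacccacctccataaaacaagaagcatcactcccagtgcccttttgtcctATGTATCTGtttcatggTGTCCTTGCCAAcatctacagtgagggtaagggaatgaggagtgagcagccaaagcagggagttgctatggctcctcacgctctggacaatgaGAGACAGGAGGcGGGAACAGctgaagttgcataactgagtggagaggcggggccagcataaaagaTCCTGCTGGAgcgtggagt
Cyp2b9, chr7:26173159-26173408, plus strand: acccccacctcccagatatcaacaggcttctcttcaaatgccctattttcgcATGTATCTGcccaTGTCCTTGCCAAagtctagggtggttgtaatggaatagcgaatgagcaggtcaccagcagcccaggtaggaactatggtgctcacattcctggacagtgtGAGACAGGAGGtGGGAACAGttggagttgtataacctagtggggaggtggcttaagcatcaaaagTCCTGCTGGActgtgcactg
The sequences were identical at 187 of 262 aligned positions (71.4%), in a global alignment that scored a match 1, a mismatch -1 and a gap -2, and 5 runs were shared, the longest of 12 bases. The motif TATAAA was found on neither strand of either window, and 12.4% of all 32851 promoter windows of this length held it. The enhancer through which CAR is known to act on Cyp2b10 lies farther upstream than this window.

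Few other xenobiotic enzymes passed the test. Of 16 measured genes in the list of cytochromes P450 and xenobiotic enzymes, 3 (18.8%) were called, against 0.893% of all named genes, with Cyp2b9 and Cyp2b10 lower and Cmbl higher in 129X1/SvJ. The median difference of the list was 0.01 on the log2 scale, against -0.0034 over all named genes. Cmbl encodes carboxymethylenebutenolidase, a hydrolase that activates ester prodrugs. Its ratios were 1.13, 1.23, 1.15 and 1.76 in 129X1/SvJ and -0.60, -0.55, -0.39 and -0.71 in FVB/NJ. The pools of each strain lay close together and apart from the other strain (log2 difference 1.88, standard error 0.17, 3.69-fold, adjusted p = 0.00185 by limma). Of the other listed P450s, Cyp2e1 differed by 0.15 and Cyp2j6 by 0.10, and the aldehyde dehydrogenases Aldh1a1 and Aldh2 by -0.02 and 0.23, all with overlapping pools. Adh1, an alcohol dehydrogenase that also oxidizes retinol, differed by -0.62 without overlap of pools but without passing the test (adjusted p = 0.177 by limma).

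In the list of glutathione metabolism and oxidant defence, 3 of 26 measured genes (11.5%) were called, against 0.893% of all named genes. Vnn1 and Slc7a11 were lower and Gsto1 higher in 129X1/SvJ, and the median difference of the list was 0.05. Gsto1 encodes glutathione transferase omega 1, which reduces dehydroascorbate and methylated arsenic. Its ratios were 0.97, 0.86, 1.28 and 0.70 in 129X1/SvJ and -0.84, -0.70, -0.75 and -0.45 in FVB/NJ, a difference of 1.64 (standard error 0.16, 3.11-fold, adjusted p = 0.00235 by limma). All pools of 129X1/SvJ lay above 0 and all pools of FVB/NJ below it. Slc7a11 encodes the subunit of the exchanger that brings cystine into the cell for glutathione synthesis. Its ratios were -2.21, -1.35, -0.77 and -1.21 in 129X1/SvJ and -0.04, 0.23, 0.33 and 0.22 in FVB/NJ, so that the difference of -1.57 came with a wide spread in 129X1/SvJ (standard error 0.27, adjusted p = 0.0294 by limma). The glutathione transferases Gstp1 (0.45), Gstk1 (0.36), Gstm2 (0.24) and Gstz1 (-0.47) did not pass the test, nor did the microsomal Mgst1 (-0.23). Mgst1 was high in both strains, at 0.85 and 1.08, against -2.11, -2.18 and -1.60 in C57BL/6J, BALB/c and DBA/2.

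Secreted proteins of the prostate epithelium differed in both directions. Of 24 measured genes in the list of luminal secretory proteins 3 (12.5%) were called, against 0.893% of all named genes. Clu and Smgc were lower and Azgp1 higher in 129X1/SvJ, and the median difference of the list was 0.02. Clu encodes clusterin, a secreted chaperone that rises in the involuting prostate after castration. Its ratios were -1.13, -1.13, -0.81 and -0.58 in 129X1/SvJ and 1.43, 1.14, 0.91 and 2.44 in FVB/NJ. Pool 4 of FVB/NJ was the highest, and the strain means differed by -2.39 (standard error 0.31, 5.25-fold, adjusted p = 0.00671 by limma). A second spot of the same accession gave -2.39 again (adjusted p = 0.00535 by limma).

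Smgc encodes a mucin-like protein of the submandibular gland. Its ratios were -0.88, -0.85, -0.67 and -0.72 in 129X1/SvJ and 0.66, 1.31, 1.50 and 0.77 in FVB/NJ (log2 difference -1.84, standard error 0.20, 3.59-fold, adjusted p = 0.00334 by limma). Azgp1 encodes zinc alpha-2-glycoprotein, a secreted lipid-mobilizing protein of the MHC class I fold. It had the smallest standard error of the 52 called genes, with 0.36, 0.40, 0.33 and 0.23 in 129X1/SvJ and -0.74, -0.77, -0.70 and -0.92 in FVB/NJ (log2 difference 1.11, standard error 0.12, 2.17-fold, adjusted p = 0.00334 by limma). Other prostate secretory genes did not pass the test: the difference was -0.78 for the spermine-binding protein gene Sbp, -0.81 for Apod, -0.47 for probasin (Pbsn), 0.25 for the transglutaminase gene Tgm4 and -0.81 for 9530053A07Rik. The pools of Apod and 9530053A07Rik did not overlap between strains, whereas those of Sbp, Pbsn and Tgm4 did. For Tgm4, which forms the copulatory plug, 129X1/SvJ pools 1 to 3 stood at 0.59, 0.42 and 0.40, above every FVB/NJ pool, and pool 4 stood at -2.18.

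Psca, the prostate stem cell antigen, was measured by 4 elements that did not all pass the test. The pair of spots of one accession was called at 1.05 and 1.08 (adjusted p = 0.0168 and 0.0103 by limma), with 129X1/SvJ pools from 0.98 to 1.42 and FVB/NJ pools from -0.22 to 0.29. The other pair was not called at 0.69 and 0.89 (adjusted p = 0.557 and 0.177 by limma). In that pair pool 4 of 129X1/SvJ stood at -0.20 and 0.44, while the other 129X1/SvJ pools stood at 1.09 or above.

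Of 20 measured androgen-regulated genes 3 (15%) were called, against 0.893% of all named genes. Azgp1 and Elovl7 were higher and Clu lower in 129X1/SvJ, and the median difference of the list was 0.08. Elovl7, an elongase of long fatty acids, differed by 0.93 (adjusted p = 0.0183 by limma), but its other element gave 0.23 and was not called. Abcc4, an exporter of cyclic nucleotides and prostaglandins, differed by 0.83 and Tmprss2, a serine protease of the luminal surface, by 0.49, neither past the test. Odc1, the first enzyme of polyamine synthesis, differed by -0.59 (adjusted p = 0.217 by limma). Of the 6 measured polyamine genes none was called and 5 lay lower in 129X1/SvJ. An unadjusted p under 0.05 by limma was found for 4 of the 6, against 9.21% of all named genes. The pools of the 15 highest and 15 lowest called genes are shown side by side in a plot.

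**Figure D2:**
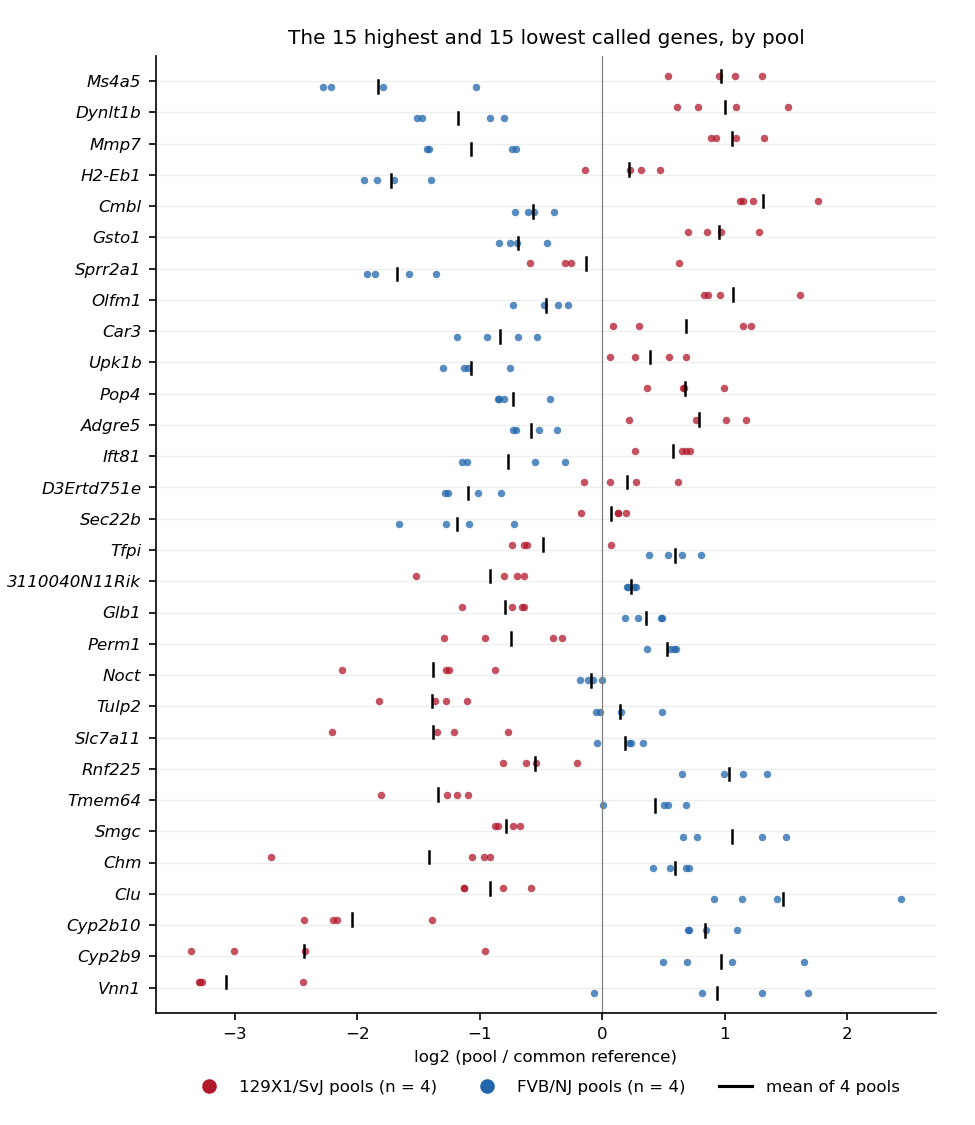
Log2 ratio of each pool over the common reference (horizontal) for the 15 highest and 15 lowest called genes by their difference, with 129X1/SvJ pools in red, FVB/NJ pools in blue and a bar at the mean of 4 pools. No pool of one strain overlaps the other in any of these genes; Chm and Cyp2b9 show 1 distant 129X1/SvJ pool, pool 4, on opposite sides.

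Of 29 measured proteases and protease inhibitors 4 (13.8%) were called, against 0.893% of all named genes. Ctsh, Spint1 and Wfdc2 were higher and Tfpi was lower in 129X1/SvJ. The median difference was 0.14, against -0.0034 over all named genes, and 22 of the 29 lay higher in 129X1/SvJ. Ctsh, a lysosomal cysteine protease, differed by 1.25, with 129X1/SvJ pools from 0.00 to 0.66 and FVB/NJ pools from -1.07 to -0.81 (standard error 0.16, adjusted p = 0.00677 by limma), and its second spot gave 1.22. Spint1, an inhibitor of the epithelial proteases that activate hepatocyte growth factor, differed by 1.19, with 129X1/SvJ pools from 0.02 to 0.56 and FVB/NJ pools from -1.08 to -0.88 (adjusted p = 0.00565 by limma). Wfdc2, a secreted protein with the fold of whey acidic protein, differed by 0.99 (adjusted p = 0.0103 by limma). Tfpi, the inhibitor of tissue factor in coagulation, was lower by a log2 difference of -1.07, but its 129X1/SvJ pool 2 at 0.07 stood away from the others, which ran from -0.73 to -0.62 (adjusted p = 0.0422 by limma). Proc, the zymogen of the anticoagulant protein C, was called in the other direction at 1.05 (adjusted p = 0.0116 by limma).

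Mmp7 was the only called gene of 58 measured for the extracellular matrix and its proteases (1.72%, against 0.893% of all named genes, median difference -0.02). It encodes matrilysin, a metalloprotease made by glandular epithelium rather than by stroma. Its ratios were 1.09, 1.32, 0.93 and 0.89 in 129X1/SvJ and -1.43, -0.74, -1.41 and -0.71 in FVB/NJ. The FVB/NJ pools fell into a lower and a higher pair, all below every 129X1/SvJ pool, and the difference was 2.13 (standard error 0.21, 4.38-fold, adjusted p = 0.00235 by limma). A second spot gave 2.20 (adjusted p = 0.00423 by limma). Of the other metalloproteases Mmp13 differed by 0.70, Mmp3 by -0.70 and Mmp2, Mmp9 and Mmp14 by 0.15, -0.02 and 0.16, and none of these passed the test. Mmp8, the neutrophil collagenase, differed by 1.07 without overlap of pools and missed the threshold (adjusted p = 0.0586 by limma).

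H2-Eb1, the beta chain that pairs with H2-Ea, was called 3.84-fold higher in 129X1/SvJ. Its ratios were 0.47, 0.23, 0.32 and -0.14 in 129X1/SvJ and -1.70, -1.84, -1.40 and -1.95 in FVB/NJ (log2 difference 1.94, standard error 0.18, adjusted p = 0.00185 by limma). FVB/NJ was the strain that stood apart, since C57BL/6J, BALB/c and DBA/2 had means of 0.29, 0.06 and 0.17. H2 genes are highly polymorphic, and the part that sequence differences from the spotted cDNA had in this value was not tested. Of the 14 measured genes of antigen presentation H2-Eb1 was the only one called by its representing element (7.14%, against 0.893% of all named genes). H2-Q1 differed by 0.16 and B2m by -0.20, both with overlapping pools. None of 24 interferon-stimulated and inflammatory genes was called by limma, and 4 of the 24 had an unadjusted p under 0.05, against 9.21% of all named genes.

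The called genes outside these lists had varied roles. Ms4a5, of the family of membrane proteins that holds CD20, had the greatest difference on the high side. Its ratios were 1.09, 0.96, 0.54 and 1.30 in 129X1/SvJ and -1.79, -2.28, -1.03 and -2.21 in FVB/NJ (log2 difference 2.80, standard error 0.28, 6.95-fold, adjusted p = 0.00268 by limma), and its second spot gave 2.44 (adjusted p = 0.00121 by limma). The pools of the second spot lay from 0.68 to 0.94 and from -2.16 to -1.37, so both spots separated the strains. Dynlt1b, a light chain of the dynein motor, differed by 2.18 (4.53-fold, adjusted p = 0.00367 by limma), whereas further elements of the gene gave 0.72, which was called, and 0.39, which was not.

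Smaller differences on the high side of 129X1/SvJ included Olfm1 (1.53), a secreted glycoprotein, Pop4 (1.40), a subunit of RNase P, and Adgre5 (1.37), the leukocyte adhesion receptor CD97. They also included Ift81 (1.35), a subunit of the intraflagellar transport complex, Car5b (1.10), a mitochondrial carbonic anhydrase, and Gprc5a (1.09), a retinoic acid-induced receptor. On the low side Chm (4.01-fold), the escort protein of Rab prenylation, had 129X1/SvJ pools at -0.96, -1.06, -0.91 and -2.70, all below FVB/NJ, whose pools ran from 0.41 to 0.71. Tmem64 (-1.77), a membrane protein of calcium handling, Rnf225 (-1.58) and Tulp2 (-1.53) were called with adjusted p of 0.00423, 0.00525 and 0.00565 by limma. Noct (-1.29), a circadian phosphatase of NADP, Glb1 (-1.15), the lysosomal beta-galactosidase, and Rnase1 (-1.07), a secreted ribonuclease, were also lower.

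Of 54 measured ER chaperones and secretory pathway genes 3 (5.56%) were called by their representing elements, against 0.893% of all named genes. In 129X1/SvJ 42 of the 54 lay lower. Their median difference was -0.16, against -0.0034 over all named genes. Erp44, which retains client proteins through disulfide exchange, was lower by -0.84 on the log2 scale and Kdelr3, a receptor that returns chaperones to the ER, by -0.81 (adjusted p = 0.0160 and 0.0232 by limma), but a second spot of Erp44 gave -0.61 and was not called (adjusted p = 0.191 by limma). Sec22b, a vesicle SNARE, was called higher at 1.26 by an element whose gene has a pair of others at -0.09 and -0.70, neither called. The chaperones Hspa5 (-1.13) and Hsp90b1 (-0.63) did not pass the test, and for Hspa5 129X1/SvJ pool 4 stood at -2.48 while the others ran from -0.74 to -0.22. No gene of the respiratory chain (52 measured, median 0.10), of the cytosolic ribosome (46, median 0.07), of the cell cycle (47, median 0.04), of Wnt, BMP and growth factor signalling (38, median 0.0029) or of prostate transcription factors (20, median -0.09) was called by limma through its representing element. At an unadjusted p under 0.05 these lists held, in that order, 1 of 52, 2 of 46, 6 of 47, 1 of 38 and 2 of 20 genes, against 9.21% of all named genes. The cell cycle list lay above that share, the transcription factor list close to it and the others below it. Of the 2 transcription factor genes 1 was Tshz2, by an element described below that varied with Svs2 between pools. A further element was called for Pttg1 (-0.85), the securin of the cell cycle, and for Rps4x (0.73), a ribosomal protein, whereas the representing elements gave -0.30 for Pttg1 and 0.14 for Rps4x and were not called.

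Over all 17 lists of functions, 20 of 475 distinct measured genes (4.21%) were called, 11 higher and 9 lower in 129X1/SvJ, against 0.893% of all named genes. These lists were chosen with earlier results of the same arrays known, so the counts are descriptions.

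Markers of tissues that adjoin the prostate were examined beside these results. Only 2 of 9 urothelial markers were measured, and both were higher in 129X1/SvJ. Upk1b, a uroplakin of the bladder surface, had ratios of 0.27, 0.55, 0.68 and 0.06 in 129X1/SvJ and -1.09, -1.13, -1.30 and -0.75 in FVB/NJ (log2 difference 1.46, adjusted p = 0.00565 by limma), and its other element gave 1.40. Sprr2a1, of a family of cornified envelope proteins, had 0.63, -0.26, -0.30 and -0.59 in 129X1/SvJ and -1.92, -1.36, -1.58 and -1.85 in FVB/NJ (log2 difference 1.55, adjusted p = 0.0262 by limma). Psca is also made by urothelium. The part of urothelial tissue in these values was not tested, and the other listed uroplakins had no tested element of their own.

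Some seminal vesicle genes varied widely between the pools of each strain. Svs2, a main protein of seminal vesicle secretion, had ratios of -5.97, -1.06, -7.31 and -7.21 in 129X1/SvJ and 0.12, -6.84, -0.36 and -1.26 in FVB/NJ. Pool 2 was high in 129X1/SvJ and low in FVB/NJ, so the means differed by -3.30 with a standard error of 1.73 (adjusted p = 0.667 by limma). Svs5 had -3.74, -0.13, -4.86 and -5.68 in 129X1/SvJ and -0.05, -4.89, -0.18 and -0.82 in FVB/NJ. Pate4, a small cysteine-rich secreted protein, followed the same pools, with -3.66, -0.84, -4.05 and -3.95 in 129X1/SvJ and 0.15, -3.89, -0.13 and -0.98 in FVB/NJ.

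An element annotated as Tshz2 had this pattern too, from -5.01 to -0.88 in 129X1/SvJ and from -3.60 to -0.29 in FVB/NJ, whereas the other elements of Tshz2 differed by -0.15 and -0.12. The list of seminal vesicle markers had 7 of 10 genes measured, none called, and its median by array ran from -2.16 to -0.13 in 129X1/SvJ and from -3.72 to -0.05 in FVB/NJ. For Svs6 the strains did not overlap: its 129X1/SvJ pools, from -0.78 to 0.81, all lay above the FVB/NJ pools, from -1.92 to -1.52 (log2 difference 1.67, adjusted p = 0.0521 by limma). Whether seminal vesicle RNA had a part in the called differences was not tested. When both pools 2 were left out, which also unbalanced the dyes, 45 elements were called, 31 of them among the 87.

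**Figure D3:**
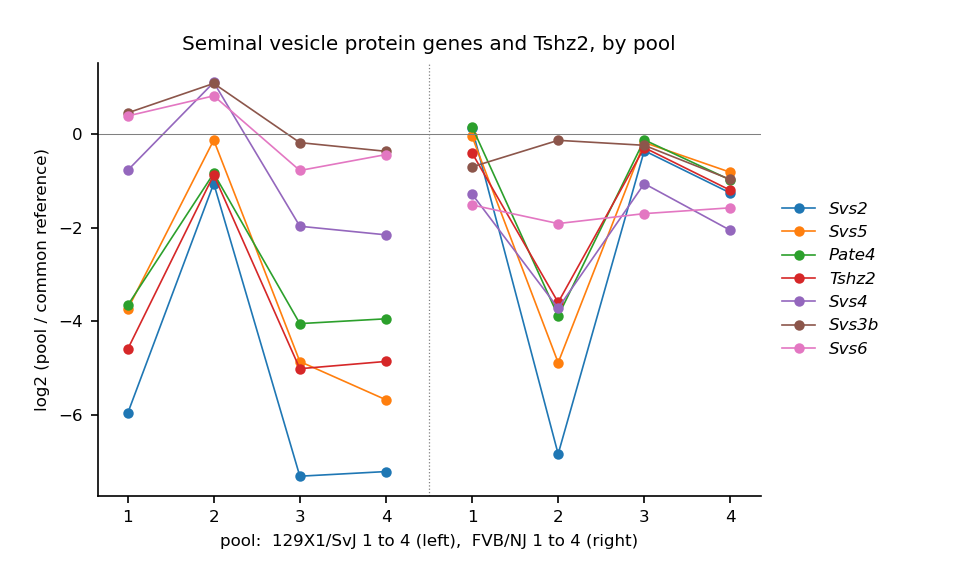
Log2 ratio over the common reference (vertical) in 129X1/SvJ pools 1 to 4 (left) and FVB/NJ pools 1 to 4 (right) for 6 seminal vesicle protein genes and the Svs2-like Tshz2 element, 1 colour per gene; lines join the pools of a gene and stand for no order. Svs2, Svs5, Pate4 and Tshz2 are high in 129X1/SvJ pool 2 and low in FVB/NJ pool 2, whereas Svs6 separates the strains.

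Other marker lists showed few differences. Spint1 was the only luminal epithelial marker called by its representing element of 12 measured (median 0.12), and Epcam, the epithelial adhesion molecule, differed by 0.56 without overlap of pools and without passing the test. Car3, a carbonic anhydrase of muscle and fat, was the only called marker of 14 for skeletal muscle, at 1.53 (adjusted p = 0.0422 by limma), and the median of that list by array ran from -0.11 to 0.27 in 129X1/SvJ and from -0.22 to 0.13 in FVB/NJ. No marker of basal epithelium (4 measured), smooth muscle (11), fibroblasts (13), endothelium (6), macrophages and leukocytes (8), lymphocytes (4) or neurons and glia (6) was called by limma. Of all named genes 0.893% were called, so lists this short would hold few or none at that share. These counts therefore do not show that the strains had the same cell composition. An unadjusted p under 0.05 was found for 1 fibroblast and 1 endothelial marker, against 9.21% of all named genes. No epididymal marker was measured.

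Each strain was also set against the mean of the 3 other strains, as values only, since these contrasts share arrays with the comparison. Of the 52 called genes, 25 differed between 129X1/SvJ and the mean of the 3 strains and not between FVB/NJ and that mean, 17 the other way, 9 in both contrasts with opposite signs and 1, Perm1, in neither. Over all elements 614 (5.5%) differed in the first contrast and 297 (2.66%) in the second, but with array weights the order turned, to 213 and 614. Mmp7, Cmbl, Gsto1, Olfm1, Cyp2b9, Tmem64 and Slc7a11 were among the 25, and H2-Eb1, Clu, Smgc, Rnf225, Upk1b and Sprr2a1 among the 17. The mean of the others joined unlike strains for several of these, so that the contrast does not place a strain apart from each of them. C57BL/6J was near 129X1/SvJ for Slc7a11 (-1.42 against -1.38) and for Gsto1 (0.70 against 0.95), and BALB/c was below FVB/NJ for Sprr2a1 (-2.13 against -1.68). Clu had means of -0.76, -1.10 and -1.23 in C57BL/6J, BALB/c and DBA/2, near the -0.91 of 129X1/SvJ, and FVB/NJ alone was at 1.48.

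Vnn1, Cyp2b10, Ms4a5, Dynlt1b and Azgp1 were among the 9 for which both strains differed from the mean of the others. For Vnn1 that mean again joined unlike strains, since C57BL/6J and DBA/2 were low at -2.75 and -2.53, as was 129X1/SvJ at -3.07, and BALB/c was high at 1.38, as was FVB/NJ at 0.94. The mean joined unlike strains for Azgp1 too, with C57BL/6J at 0.87 above 129X1/SvJ at 0.33 and BALB/c at -0.96 below FVB/NJ at -0.78. For Ms4a5 BALB/c at -1.58 lay near FVB/NJ at -1.83, whereas C57BL/6J and DBA/2 were at 0.09 and -0.03. For Cyp2b10 the others stood between both strains, at 0.14, -0.89 and 0.49. The plot of 12 genes over 5 strains shows these orders.

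**Figure D4:**
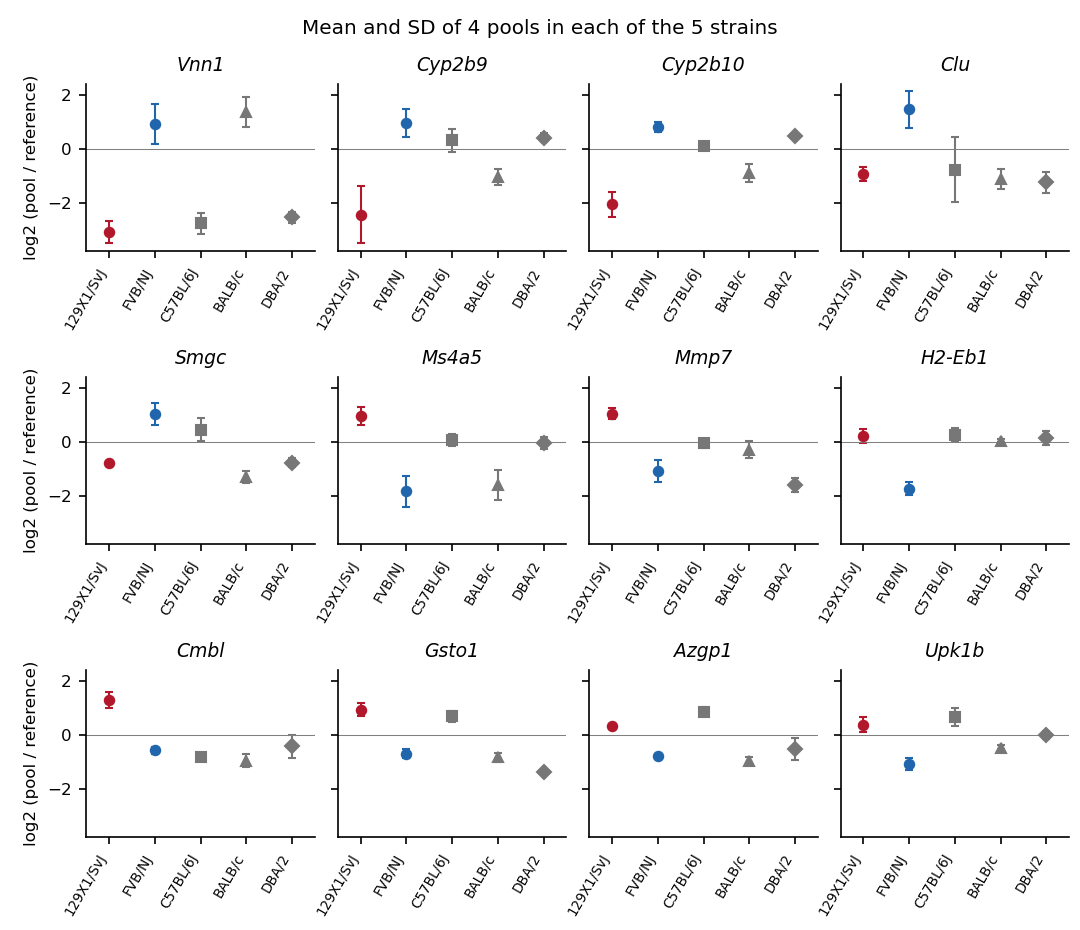
Mean log2 ratio over the common reference (vertical) with its SD over 4 pools in each of 5 strains, for 12 called genes; 129X1/SvJ is red, FVB/NJ blue and the other strains grey. FVB/NJ alone is high for Clu and low for H2-Eb1, 129X1/SvJ is lowest for Cyp2b9 and highest for Cmbl, and Vnn1 splits the strains into a high pair and a low group.

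The spread and the dye behaved differently in both strains. The median SD over pools was 0.30 in 129X1/SvJ and 0.17 in FVB/NJ, and it was larger in 129X1/SvJ for 78.6% of elements. The Cy5 and Cy3 pools differed by more than 1 on the log2 scale for 643 elements in 129X1/SvJ and for 91 in FVB/NJ. All 87 called elements had the same sign within each dye, which had to be so because their pools did not overlap between the strains. The strain difference depended on the dye for 18 of 11136 elements tested (0.162%), and none of these was among the 87. All 18 were lower in 129X1/SvJ on the Cy3 arrays and higher on the Cy5 arrays.

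**Figure D5:**
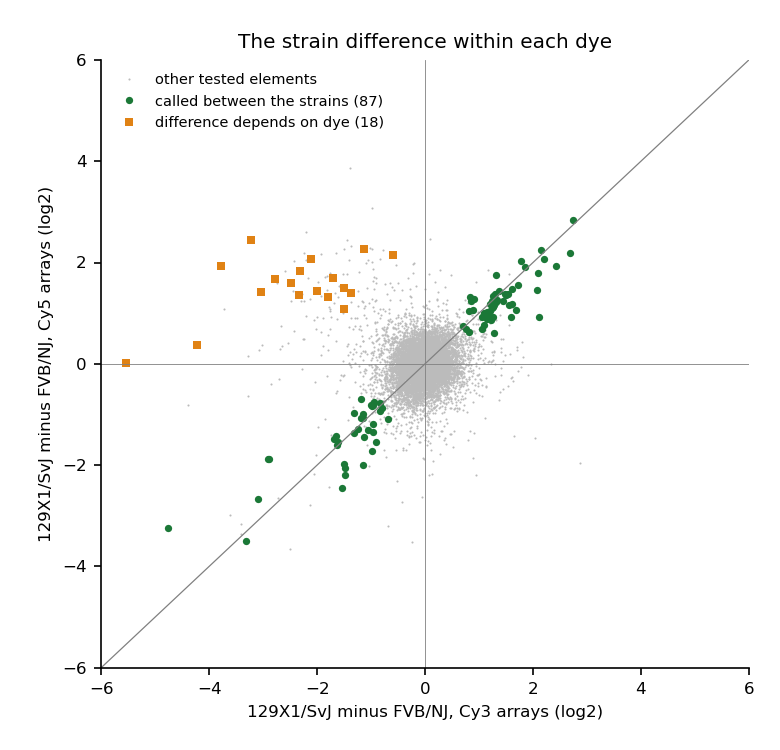
Difference between the strains (129X1/SvJ minus FVB/NJ, log2) on the 4 Cy3 arrays (horizontal) and on the 4 Cy5 arrays (vertical) for each tested element; the grey line marks equal differences. The 87 called elements (green) all lie in the upper right or lower left quadrant, as elements whose pools do not overlap must. The 18 elements whose difference depends on dye (orange) lie in or at the edge of the upper left quadrant.

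Leaving out each of the 8 pools in turn kept 22 of the 52 called genes past the threshold in every case, and 30 lost it at least once. The 22 were Azgp1, Car5b, Clu, Cmbl, Ctsh, Cyp2b10, Cyp2b9, Dynlt1b, Gprc5a, Gsto1, H2-Eb1, Mmp7, Ms4a5, Olfm1, Pop4, Rnf225, Smgc, Spint1, Tmem64, Tulp2, Upk1b and Vnn1. None of the 52 changed sign under the 25 alternatives that gave a value per gene. Where an alternative only left out or weighted pools, the sign could not change, because the pools of these genes did not overlap.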

How the data were processed

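Prostate RNA of 4 pools per strain was hybridised with a common reference to spotted cDNA arrays of 11552 elements, 8 of the 20 arrays of the series being compared here. The authors read the scans with GenePix Pro, subtracted the median background, normalized by print-tip loess, set spots that failed detection to missing and deposited log2 ratios of sample over reference. Neither depth nor intensity is used here, and the precision is limited by how many arrays there are. Loess centres each array, so a shift of most genes in one direction would not be seen.

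From the deposited log2 ratios, 11159 elements were tested and 393 left out. The rule was no more than 3 values missing among the 20 arrays and 2 or more values in each of the 5 strains. The difference between strains was fitted with limma 3.58.1 (lmFit and eBayes, R 4.3.3) on the 8 arrays with strain as the only term, with Benjamini-Hochberg adjustment over all elements tested and a threshold of 0.05. Missing values were left out of a fit and none was imputed. Strain by dye, and each strain against the mean of the 3 others (all 20 arrays), were fitted likewise. Probe annotation gave 8050 elements 1 gene symbol and 672 several, and 2830 were not listed; 7880 matched the RefSeq gene table. A gene was represented by its element with the fewest missing values, ties going to the lowest number. Named are the 15 highest and 15 lowest called genes without overlap, the genes named in the study that have an element of their own, list members that were called with further members as examples, markers of other cell types and family members on the array. Members and lists were chosen with earlier results of these data known. The fit was tested on simulated data with known differences. Alternatives covered missing values, centring and scaling, quantile normalization, dye, the replicate block, array weights, robust and unmoderated fits, a SAM statistic written anew with 70 splits, averaged elements and each pool left out; leaving out both pools 2 was added after the data were seen. The pools held different mice, so p-values measure the spread between pools of 3 mice and not between single mice. Figures were drawn with matplotlib 3.10.9.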

Additional observations from a re-analysis of the deposited data

Results flagged for a closer look

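Among 180 groups of 4 pools examined for the genes in the text, 13 held a pool whose gap to the nearest other exceeded Dixon's critical share of the group's range, and chance alone marks about 1 group in 20. In 129X1/SvJ, pool 4 stood apart for Cmbl at 1.76 (others 1.13 to 1.23), Olfm1 at 1.62 (others 0.83 to 0.96), Chm at -2.70 (others -1.06 to -0.91), Vnn1 at -2.44 (others -3.29 to -3.27) and 1 Psca element at -0.20 (others 1.09 to 1.34). Pool 1 of 129X1/SvJ stood apart for Ift81 at 0.27, below the others from 0.65 to 0.72. Pool 2 of 129X1/SvJ stood apart for Tfpi at 0.071, above the others from -0.73 to -0.62, and for Pate4 at -0.84, above the others from -4.05 to -3.66. In FVB/NJ, pool 2 stood apart for Pop4 at -0.42 (others -0.85 to -0.80) and Svs5 at -4.89 (others -0.82 to -0.05). Pool 1 of FVB/NJ stood apart for Itpripl2 at -0.20, and pool 4 for Pnrc2 at 0.42 and for the same Psca element at 0.34. All of these elements but those of Psca, Svs5 and Pate4 were called between the strains.

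The difference between the strains depended on the dye for 18 elements by limma's interaction of strain and dye, with adjusted p from 0.00851 to 0.0478. In all of them 129X1/SvJ was lower than FVB/NJ on the Cy3 arrays and higher on the Cy5 arrays. The values follow as the log2 difference on Cy5 and then on Cy3. Map7d1 had 1.69 and -1.71, Homer1 1.42 and -3.05, Sox17 1.67 and -2.77, and Vav2 1.35 and -2.33. Smc2os had 1.33 and -1.81, Khdrbs1 1.50 and -1.50, Ppp4r3b 1.60 and -2.49, and Dnajc3 1.08 and -1.50. Ncoa1 had 0.37 and -4.23, Hoxa5 1.43 and -2.01, Ier5 1.83 and -2.31, and Ube2ql1 2.44 and -3.23. Gm9833 had 1.39 and -1.37, Lypd4 2.14 and -0.59, and an element annotated with the symbol ACTB 1.93 and -3.79. The 3 elements without a gene name had 2.07 and -2.11, 2.27 and -1.14, and 0.016 and -5.54. None of these 18 was among the 87 called elements, and the cause was not tested.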

How the results depend on the processing

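The 87 elements called became 21 on the Cy3 arrays alone (9 higher and 12 lower in 129X1/SvJ, 15 named genes, 6 list genes, 12 elements shared with the 87) and 0 on the Cy5 arrays alone (0 higher, 0 lower, 0 named genes, 0 list genes), both with 2 pools against 2. With all 20 arrays in 1 fit by limma they became 394 (200 higher, 194 lower, 218 named genes, 38 list genes), holding all 87. With array weights 132 were called (79 higher, 53 lower), again holding all 87, and 129X1/SvJ pool 4 had the lowest weight, 0.266. Array weights moved the 614 elements in which 129X1/SvJ differed from the 3 other strains to 213 and the 297 of FVB/NJ to 614. Without moderation of the variances 23 were lower in 129X1/SvJ. Without both pools 2, an alternative chosen after seeing the data, 45 elements (21 higher) and 26 named genes were called. The 18 dye-dependent elements became 10 with no missing value allowed and 6 with arrays scaled alike. A SAM statistic called 82 elements, 81 of them among the 87.

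Leaving out each pool in turn gave 38 to 157 elements, 25 to 100 higher, 13 to 57 lower, 23 to 93 named genes and 12 to 24 list genes. The lowest count came without FVB/NJ pool 1 (without pools 2, 3 and 4 it was 52, 53 and 40) and the highest without 129X1/SvJ pool 4. Over the same fits Egf ran from -0.30 to 0.27, Esr1 from -0.12 to 0.14 and Rbp4 from -0.35 to 0.062.

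The pool numbers are shared by both strains, and same-numbered pools always carried opposite dyes. The deviations of same-numbered pools correlated at -0.0838, -0.308, -0.221 and -0.339. Between the strains, pools of the same dye correlated from 0.021 to 0.33 and all pools of opposite dyes negatively. Number and dye are therefore mixed here, and these correlations cannot show whether the numbers pair the pools. With the replicate block 7 elements were called (3 higher, 4 lower, 5 named genes, 5 list genes), and with the replicate block and dye 33 (17 higher, 16 lower, 17 named genes, 11 list genes).

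Signs turned only for genes that were not called. For called elements, whose pools did not overlap, leaving out or weighting pools could not turn the sign. In the main fit H2-Ea was -0.70 and H2-Q1 0.16, Egf and Rbp4 were negative and Esr1 was positive. Scaling the arrays gave Egf 0.38, Esr1 -0.0067, H2-Ea 0.62 and H2-Q1 -0.046, and quantile normalization gave Egf 0.62, H2-Ea 1.92, H2-Q1 -0.044 and Rbp4 0.020. The check of the strain labels by H2-Ea used the deposited ratios, without either step. The Cy3 arrays gave Egf 0.33, Esr1 -0.0060 and Rbp4 0.080, and array weights gave Egf 0.11 and Esr1 -0.021. Without both pools 2 Esr1 was -0.18, and averaged elements gave Esr1 -0.24 and Rbp4 0.038. The causes were not tested.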
